A study of Mus musculus with 6 samples.

Results

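The 7 microRNAs (miRNAs) described here were measured in small RNA of vesicles released by mouse PBMCs (peripheral blood mononuclear cells). They were miR-10a-5p and miR-10b-5p, miR-99a-5p, miR-99b-5p and miR-100-5p, and miR-125a-5p and miR-125b-5p. They were taken by name as members of 3 related families, and all 7 were present among the 620 rows of the deposited table. The set was also selected on measured values, in that lower CPM of miR-99b-5p in IS libraries had been noted in these data before. The contrast of IS with control is therefore given as a description, without a test of the members. The libraries came from wild-type mice, 3 from vesicles of untreated cells (control 1 to 3) and 3 from vesicles labelled IS-stimulated (IS 1 to 3). The labels do not spell out IS, and they name neither a dose nor a time, nor the animals' strain or age. Whether replicates came from separate animals or cultures is not stated, so the spread between libraries may be technical.

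Vertebrate miR-10, miR-99, miR-100 and miR-125 genes are ancient relatives that sit in a few conserved places of the genome. The miR-10 genes lie inside Hox clusters, the gene arrays that pattern the body axis, and repress Hox transcripts among others. The miR-99 and miR-100 genes lie beside a let-7 gene and a miR-125 gene, and the 3 hairpins of such a cluster can be cut from 1 primary transcript. Members of the miR-99/100 family repress mTOR, a kinase that drives growth, in human cells. The miR-125 miRNAs are the vertebrate relatives of lin-4 of the nematode, and in mouse blood formation they act on stem cells and myeloid cells.

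The mature sequences show why the 7 form 3 groups, and how little separates some of the rows that were counted. They are RefSeq sequences of GRCm38.p6, matched by name for 7 of 7 members, written 5′ to 3′ with the seed (bases 2 to 8, which pair with target transcripts) in capitals.
miR-10a-5p: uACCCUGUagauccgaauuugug
miR-10b-5p: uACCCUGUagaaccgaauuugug
miR-99a-5p: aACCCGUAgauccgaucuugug
miR-100-5p: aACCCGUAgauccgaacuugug
miR-99b-5p: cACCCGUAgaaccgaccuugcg
miR-125a-5p: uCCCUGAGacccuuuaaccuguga
miR-125b-5p: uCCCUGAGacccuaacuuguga
Both miR-10 miRNAs share the seed ACCCUGU, the miR-99/100 miRNAs share ACCCGUA and the miR-125 miRNAs share CCCUGAG. Counting positions from 1 at the 5′ end, miR-10a-5p differs from miR-10b-5p by U12A alone, and miR-99a-5p differs from miR-100-5p by U16A alone. From miR-99a-5p to miR-99b-5p there are 4 differences over 22 bases (A1C, U11A, U16C and U21C). The miR-125 pair shares its first 13 bases. How a read with 1 mismatch was assigned is not given in the sources used here, so the split of reads between miR-10a-5p and miR-10b-5p, and between miR-99a-5p and miR-100-5p, is uncertain to that extent.

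The hairpins stand at 8 places on 5 chromosomes (GRCm38, plus strand throughout, GENCODE annotation; the authors' own build is not known). Mir10a lies at chr11:96317165-96317274, in no annotated host gene and 992 bases upstream of Hoxb4. Mir10b lies at chr2:74726070-74726137 in introns of Hoxd3 and Hoxd4. On chromosome 17, Mir99b (chr17:17830188-17830257) is followed by Mirlet7e after 94 bases and by Mir125a (chr17:17830812-17830879) after a further 367 bases, all within the gene Spaca6, where Mir125a overlaps an annotated exon and the other hairpins are intronic. On chromosome 16, Mir99a (chr16:77598936-77599000) is 656 bases from Mirlet7c-1 and 47.3 kb from Mir125b-2 (chr16:77646273-77646343), in introns of the noncoding gene Mir99ahg. On chromosome 9, Mir100 (chr9:41531425-41531504) is 5.21 kb from Mirlet7a-2 and 50.4 kb from Mir125b-1 (chr9:41581926-41582002), in introns of the noncoding gene 3110039I08Rik. Mature miR-125b-5p is the same sequence from Mir125b-1 and Mir125b-2, so its reads cannot be split between chromosomes 9 and 16.

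The total miRNA count of a library lay between 125731 and 435468, so 1 count was worth 2.30 to 7.95 CPM (counts scaled to a total of 1000000). The leukocyte miRNAs expected of PBMCs were all present (7 of 7), at a summed 7061 to 23150 CPM in control and 9107 to 27398 CPM in IS. Most of this was miR-142a-5p alone, with 4953 to 20128 CPM in control and 6212 to 23909 CPM in IS. Red cell miRNAs (4 of 4) summed to 93435 to 186873 CPM in control and 120628 to 223132 CPM in IS, with miR-451a as their most abundant. The liver miRNA miR-122-5p with miR-192-5p summed to 24325 to 113012 CPM in control and 32744 to 107525 CPM in IS. Endothelial miR-126a, both arms together, ran from 9055 to 24461 CPM in control and from 4834 to 26477 CPM in IS. Smooth muscle and fibroblast miRNAs (5 of 5) ran from 9185 to 12217 and from 7245 to 10618 CPM, heart and skeletal muscle miRNAs (3 of 3) from 311 to 2194 and from 1604 to 4698 CPM, and epithelial miRNAs (6 of 6) from 222 to 648 and from 482.6 to 1161 CPM. None of the markers was at 0 in every library.

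The 7 miRNAs together held 1.31, 1.20 and 1.14% of the summed counts of control 1, 2 and 3. In IS 1, 2 and 3 the shares were 1.47, 0.718 and 1.43%. Rows taken as duplicates, such as miR-122-5p and miR-122b-3p, are counted more than once in these sums, so the shares are not percentages of reads. The lowest share belonged to IS 2, and the other IS libraries lay above all control libraries. Group means were 1.21 ± 0.085% in control and 1.21 ± 0.422% in IS (SD, n = 3 per group). Most of the members' counts came from the miR-99/100 family, with 0.475 to 0.901% of a library's summed counts. It was followed by miR-10 with 0.217 to 0.735%, while miR-125 had 0.0081 to 0.0318%. IS 1 was the exception to this order, with 0.735% for miR-10 and 0.723% for miR-99/100. In vesicle RNA, fewer vesicles from a cell type and fewer copies per vesicle cannot be told apart.

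**Figure D1:**
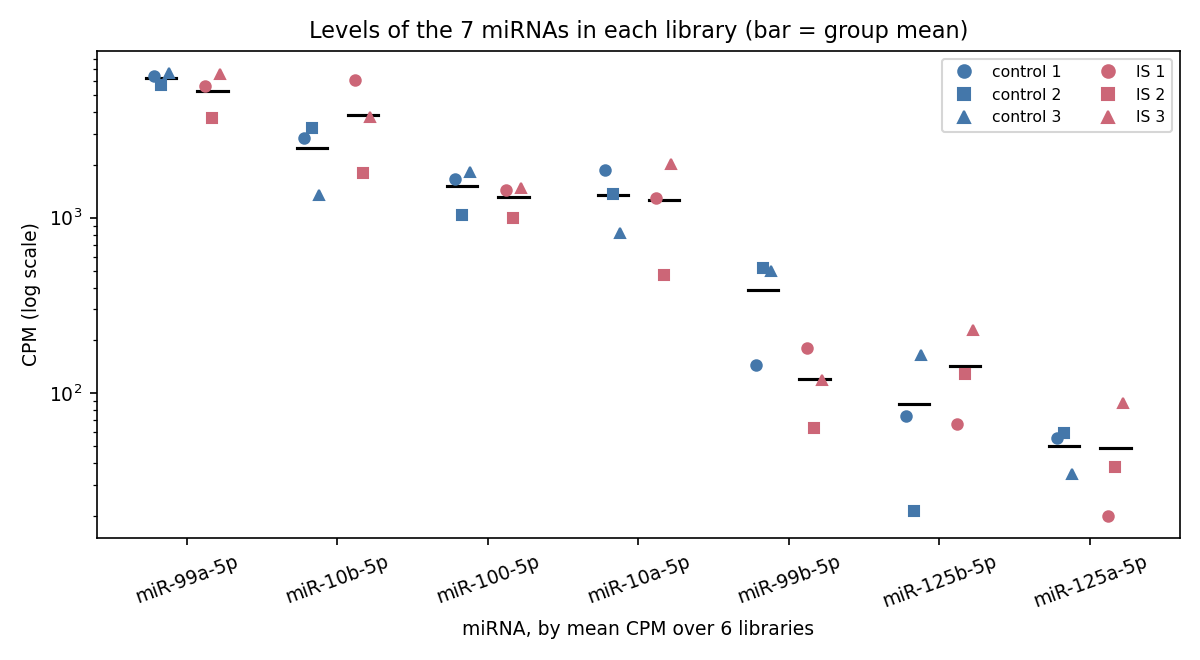
Level of each of the 7 miRNAs in every library (CPM, logarithmic axis), ordered by mean CPM over the 6 libraries, with control libraries in blue, IS libraries in red and a bar at each group mean (n = 3). The means run from 5782 CPM for miR-99a-5p to 49.1 CPM for miR-125a-5p, and the control and IS points overlap for all 7.

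Within the miR-10 family the Hoxd-cluster member miR-10b-5p was the more abundant in every library. It stood at 2863, 3261 and 1350.3 CPM in control 1 to 3 and at 6052, 1789.97 and 3746 CPM in IS 1 to 3. The Hoxb-cluster member miR-10a-5p stood at 1868, 1365 and 815 CPM in control and at 1300.25, 469.6 and 2028 CPM in IS. For both, control 3 and IS 2 were the lowest libraries of their groups. These are also the libraries with the highest summed red cell level in their groups (186873 and 223132 CPM). They had the lowest summed endothelial level too (9055 and 4834 CPM), nearly all of it miR-126a-3p (8928 and 4774 CPM). The other arm, miR-126a-5p, did not follow this order. Among controls it was highest in control 3 (126 CPM), and in IS 2 (59.9 CPM) it lay above IS 1 (26.8 CPM). The part of these markers in the miR-10 values was not tested. miR-10b-5p took 60.5% (95% exact binomial interval 57.8 to 63.2%) of the family's reads in control 1, the lowest share, and 82.3% (79.9 to 84.5%) in IS 1, the highest. The within-library log2 ratio of miR-10b-5p to miR-10a-5p was 0.62, 1.26 and 0.73 in control and 2.22, 1.93 and 0.88 in IS, with overlapping groups. Its mean was 1.27 ± 0.66 (SD, n = 6), a 2.41-fold higher count of miR-10b-5p, higher in 6 of 6 libraries (exact two-sided sign-flip permutation test, p = 0.031, adjusted p = 0.0491 over 11 pairs).

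Within the miR-99/100 family the order was miR-99a-5p, miR-100-5p and miR-99b-5p in every library. miR-99a-5p, from chromosome 16, was at 6388, 5701 and 6687 CPM in the control libraries and at 5609.8, 3697 and 6609 CPM in the IS libraries. miR-100-5p, from chromosome 9, was at 1661, 1042 and 1828 CPM in the control libraries and at 1441, 993 and 1479 CPM in the IS libraries. Both were steady, the highest library standing 1.81 times above the lowest for miR-99a-5p and 1.84 times for miR-100-5p. Over all 206 miRNAs that passed the filter on low counts, the SD of log2 CPM across the 6 libraries had a median of 0.89. It was 0.32 for miR-99a-5p, the 10th lowest, and 0.36 for miR-100-5p, the 14th lowest. miR-99b-5p, from chromosome 17, was less steady (SD 1.18), with 144, 519 and 498 CPM in control and 181, 63.0 and 119 CPM in IS.

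The count of miR-99a-5p stood at 4.13 times that of miR-100-5p, and this ratio varied least of the 11 pairs compared. The log2 ratio was 1.94, 2.45 and 1.87 in control and 1.96, 1.90 and 2.16 in IS (mean 2.05 ± 0.22, SD, n = 6). Control 2 was the highest and the other 5 libraries lay between 1.87 and 2.16. Counting error alone would give an SD of 0.094. miR-99a-5p was higher in 6 of 6 libraries (exact sign-flip permutation test, p = 0.031, adjusted p = 0.0491). The sequences differ by U16A alone, and the part of reads assigned to the wrong row was not tested.

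miR-99b-5p was 29.0-fold lower than its paralogue miR-99a-5p (log2 ratio -4.86 ± 1.03) and 7.03-fold lower than miR-100-5p (log2 ratio -2.81 ± 1.14, SD, n = 6). Both differences had the same sign in 6 of 6 libraries (exact sign-flip permutation test, p = 0.031 and adjusted p = 0.0491 for each). Both pairs use the IS values of miR-99b-5p that had been noted before, so these p-values are given as a description. miR-99b-5p made up 7.14% (95% exact binomial interval 5.97 to 8.47%) of the family's reads in control 2 and 5.53% (4.83 to 6.29%) in control 3. In control 1 its share was 1.76% (1.25 to 2.40%). In the IS libraries it was 2.502% (1.66 to 3.62%), 1.33% (0.812 to 2.04%) and 1.45% (0.816 to 2.39%). Control 2 and control 3 thus stood above the other 4 libraries, while control 1 lay among the IS libraries.

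The miR-125 miRNAs were the least abundant of the 7, and their values rest on few reads. miR-125a-5p had 15, 14 and 15 counts in control (55.5, 59.5 and 34.4 CPM) and 3, 12 and 11 counts in IS (20.1, 37.8 and 87.5 CPM). IS 1 was at the floor of 3 counts, where the exact Poisson interval, which covers counting error only, runs from 4.15 to 58.8 CPM. miR-125b-5p had 20, 5 and 72 counts in control (74.0, 21.3 and 165 CPM) and 10, 41 and 29 counts in IS (67.0, 129 and 231 CPM). Control 2 was the lowest for miR-125b-5p and IS 3 the highest, a 10.9-fold range. The log2 ratio of miR-125a-5p to miR-125b-5p was -0.40, 1.40 and -2.23 in control and -1.58, -1.73 and -1.36 in IS. The mean of -0.98 ± 1.31 (SD, n = 6), with miR-125b-5p higher in 5 of 6 libraries, did not pass the test (exact sign-flip permutation test, p = 0.125, adjusted p = 0.138). Control 2 was the library with the opposite order.

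The reads of miRNAs whose hairpins share a cluster were compared next. In 3 of the 6 partner pairs the same miRNA had the higher count in every library. The ratios are of reads in vesicle RNA and do not measure how much each hairpin yields. miR-99a-5p exceeded miR-125b-5p 61.2-fold (log2 ratio 5.94 ± 1.20) and miR-100-5p exceeded it 14.8-fold (3.89 ± 1.07). On chromosome 17 miR-99b-5p exceeded miR-125a-5p 4.17-fold (2.06 ± 1.41). Each of these held in 6 of 6 libraries (SD over n = 6, exact sign-flip permutation test, p = 0.031, adjusted p = 0.0491). The pair with miR-99b-5p uses values noted before, and the adjusted p-values are given as a description. Since miR-125b-5p pools 2 hairpins, its partners' excess over a single hairpin is at least as large as given. The count of miR-99a-5p was 1.52 times that of let-7c-5p (log2 ratio 0.60 ± 0.61), higher in 5 of 6 libraries, which missed the threshold (exact permutation p = 0.094, adjusted p = 0.115). let-7c-5p also has a second hairpin, Mirlet7c-2 on chromosome 15. miR-125a-5p was 3.21-fold lower than let-7e-5p (log2 ratio -1.68 ± 1.14), lower in 5 of 6 libraries (exact permutation p = 0.0625, adjusted p = 0.0859). miR-99b-5p over let-7e-5p had a log2 ratio of 0.38 ± 0.77, above 0 in 4 of 6 libraries, which did not pass the test (exact permutation p = 0.313, adjusted p = 0.313).

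**Figure D2:**
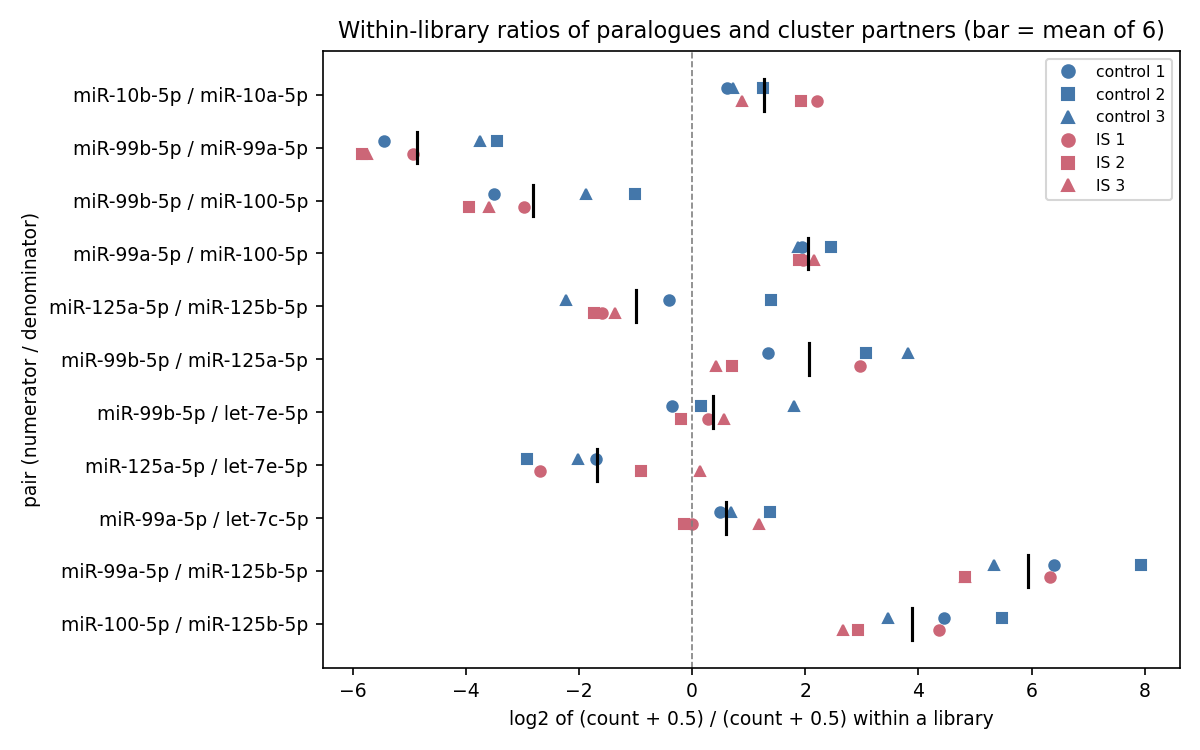
Log2 ratio of the counts of 2 miRNAs within each library, for 5 paralogue pairs and 6 cluster partner pairs (1 point per library, control in blue, IS in red, bar at the mean of 6). The points of miR-99a-5p over miR-100-5p lie between 1.87 and 2.45, while those of miR-125a-5p over miR-125b-5p spread from -2.23 to 1.40.

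In all, 7 of the 11 pairs differed in level past the adjusted threshold. With 6 libraries the smallest two-sided p of this test is 0.031, and 7 pairs at that value are the fewest for which the adjustment over 11 gives a value under 0.05. The call therefore holds for the 7 pairs together, and without the pairs of miR-99b-5p among them it could not be made. Those pairs use the IS values of miR-99b-5p that had been noted before, and all pairs were chosen with earlier results known. The adjusted p-values of the pairs are therefore given as a description, beside the sign of each ratio in the 6 libraries. With any 1 library left out the smallest p is 0.0625 and no pair can pass, although no mean ratio changed sign.

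The neighbours of miR-99b-5p on chromosome 17 are described here beside it. let-7e-5p, the middle hairpin, stood at 185, 463 and 142 CPM in control and 147, 72.5 and 79.5 CPM in IS, with overlapping groups and an IS minus control log2 value of -1.30 (SE 0.76). Control 2 was high for both miR-99b-5p (519 CPM) and let-7e-5p (463 CPM), whereas control 3 was high for miR-99b-5p (498 CPM) and not for let-7e-5p (142 CPM). miR-125a-5p was highest in IS 3 (87.5 CPM), with 59.5 and 34.4 CPM in control 2 and control 3. The log2 ratio of miR-99b-5p to miR-125a-5p was 1.35, 3.08 and 3.81 in control and 2.97, 0.71 and 0.43 in IS, with overlapping groups. The counting error of that ratio alone amounts to an SD of 0.54.

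**Figure D3:**
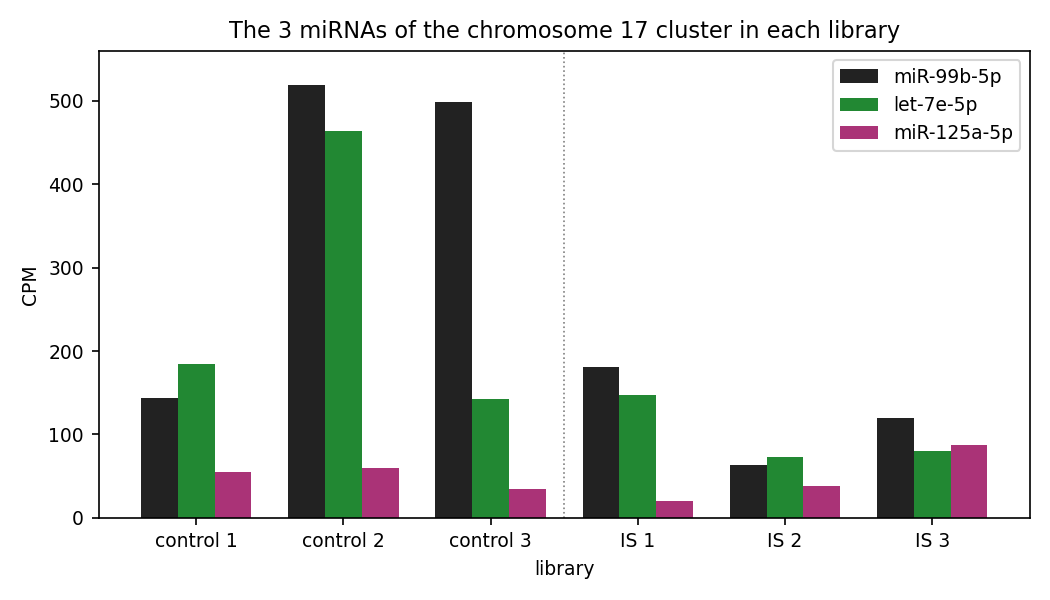
CPM of miR-99b-5p, let-7e-5p and miR-125a-5p, whose hairpins are neighbours on chromosome 17, in each of the 6 libraries (bars start at 0). Control 2 has high miR-99b-5p and let-7e-5p (519 and 463 CPM), control 3 has high miR-99b-5p alone (498 CPM), and miR-125a-5p stays between 20.1 and 87.5 CPM.

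From control to IS the values of miR-99b-5p were 387 ± 211 and 121 ± 59.0 CPM (SD, n = 3 per group). The edgeR log2 fold change was -1.54 (SE 0.72, 95% interval -3.12 to 0.036). With a library left out it ran from -2.33 without control 1 and -2.32 without IS 1 to -1.37 without control 3 and -1.27 without IS 2. Without control 1 but with the filter and scaling of all libraries kept, it was -1.88. With all libraries it was the second lowest of the 206 miRNAs, and the values of control 1 and IS 1 made the groups overlap. The mean within-library log2 ratio of miR-99b-5p to miR-99a-5p was -4.22 ± 1.08 in control and -5.50 ± 0.50 in IS with overlapping groups. This ratio uses the same miR-99b-5p counts and is no separate evidence.

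For the other members the contrast was smaller than or near its SE. The mean of miR-10b-5p was 2491 ± 1008 CPM for control and 3863 ± 2134 CPM for IS. Its log2 fold change was 0.67 with an SE of 0.62, and -0.17 when IS 1 was left out. miR-125b-5p had 86.9 ± 72.9 and 142 ± 82.6 CPM (0.65, SE 0.89), which was -0.029 without control 2. miR-10a-5p had 1349 ± 527 and 1266 ± 779.9 CPM (-0.19, SE 0.62, or 0.15 without IS 2). The log2 fold changes of miR-99a-5p (-0.24, SE 0.45), miR-100-5p (-0.20, SE 0.50) and miR-125a-5p (-0.15, SE 0.99) had 95% intervals of -1.24 to 0.76, -1.30 to 0.89 and -2.34 to 2.04. That of miR-125a-5p was 0.0044 without IS 1. Those of miR-99a-5p and miR-100-5p reached -0.65 without IS 3 and -0.75 without control 2. These 2 refits also moved the median over all miRNAs, to -0.23 and -0.22. With the filter and scaling of all libraries kept, the same omissions gave -0.24 for miR-99a-5p and -0.45 for miR-100-5p. The value of miR-125b-5p without control 2 was then 0.19.

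All 7 members passed the filter, and their median log2 fold change was -0.19, beside 0.022 over all 206 miRNAs. Of the 7, 0 were past an adjusted p of 0.05 in edgeR's quasi-likelihood test, where the background was 0% (0 of 206, with 3 miRNAs at an unadjusted p under 0.05, 0 of 618 called by DESeq2 with 14 at such a p, and 0 of 206 by limma with 2). A log2 fold change below 0 was seen in 5 of the 7, against 47.1% of the 206. A value of -1 or lower was seen in 1 of the 7, miR-99b-5p, against 3.88% of the 206. Non-overlapping groups were seen in 0 of the 7, against 0.971% with IS lower and 0.485% with IS higher. As the contrast was known when the members were chosen, nothing is read from these counts. The spread between libraries limits what could be seen. In simulated data with the observed spread, 28.1% of the miRNAs given a log2 change of 2 and 4.67% of those given a change of 1 were called. There, 200 of the 620 rows were changed, and a common dispersion of 0.464 was used for all rows. The tested rows given a change of 0 came back at a median log2 value of -0.33. This is further from 0 than the members' median of -0.19. Data with fewer changed rows, where the adjustment is stricter, were not simulated.

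The opposite (3p) arms of the hairpins, usually the strand that is discarded, were rare, and 0 of the 7 in the table passed the filter. miR-99a-3p was not analysed here. The 3p arms of Mir10a and Mir99b had the most reads, and their sequences share little with the 5p arms (seed in capitals).
miR-10a-3p: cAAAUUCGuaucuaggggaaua
miR-99b-3p: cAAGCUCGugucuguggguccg
miR-10a-3p had 0, 0 and 2 counts in control 1 to 3 and 6, 4 and 8 counts in IS 1 to 3, so the groups did not overlap, whereas those of miR-10a-5p from the same hairpin did. Non-overlapping groups with IS higher were seen in 3 of the 620 rows, or 0.484%, miR-10a-3p among them. miR-10a-3p made up 0% of the reads of both arms in control 1 (exact interval up to 0.728%, and 0.594% by the floor of 3 counts), 0% in control 2 (up to 1.14%, and 0.935% by the floor) and 0.56% in control 3 (95% exact binomial interval 0.068 to 2.01%). In IS 1 to 3 it made up 3.0% (1.11 to 6.42%), 2.61% (0.717 to 6.56%) and 3.04% (1.32 to 5.91%). The interval of control 1 overlaps that of IS 2, the interval of control 2 those of IS 1 and IS 2, and the interval of control 3 those of all 3 IS libraries. The control libraries were under the floor of 3 counts, so no fold is given.

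**Figure D4:**
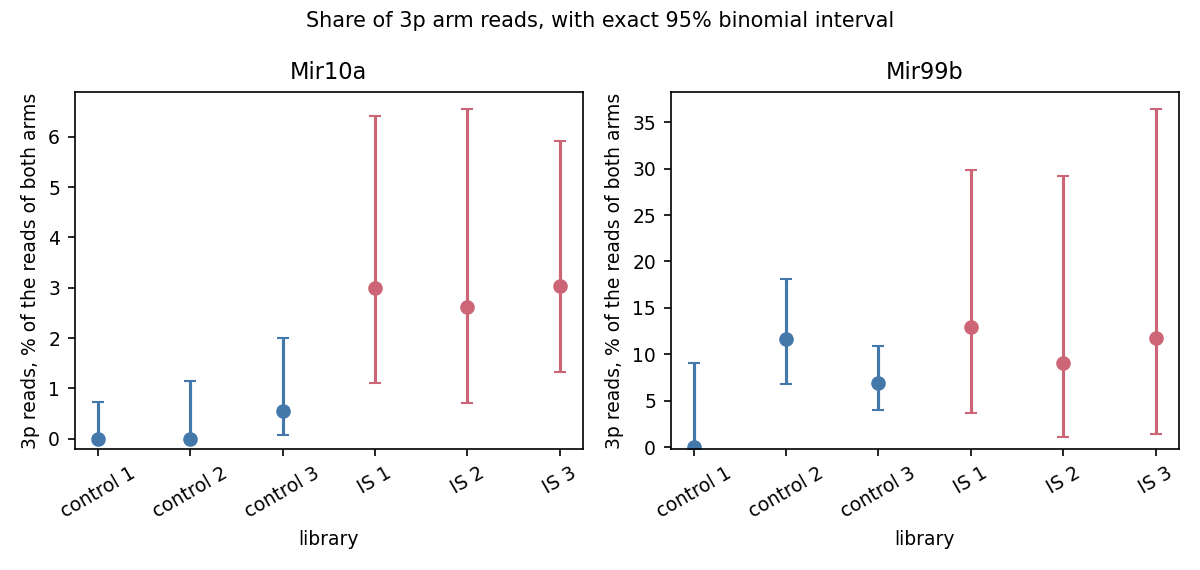
Share of 3p arm reads among the reads of both arms for Mir10a (left) and Mir99b (right) in each library, with exact 95% binomial intervals that cover counting error only; control in blue, IS in red. For Mir10a the IS points lie at 2.61 to 3.04% and the control points at 0 to 0.56%, while for Mir99b control and IS points overlap and the intervals are wide.

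miR-99b-3p had 0, 16 and 16 counts in control and 4, 2 and 2 counts in IS, and thus was highest in control 2 and control 3, as its 5p arm was. It made up 11.6% (6.77 to 18.1%) of both arms in control 2, 6.87% (3.98 to 10.9%) in control 3 and 12.9% (3.63 to 29.8%), 9.09% (1.12 to 29.2%) and 11.8% (1.46 to 36.4%) in IS 1 to 3 (exact 95% binomial intervals). In control 1 it was at 0 of 39 reads, with an exact interval up to 9.03% (7.69% by the floor of 3 counts). The 3p arms that tell the miR-125b hairpins apart gave 11 counts in all for miR-125b-1-3p from chromosome 9 and 10 for miR-125b-2-3p from chromosome 16. Most were in control 3, with 9 and 8 counts, which was also the deepest library. Control 3 and IS 2 also had the most miRNAs with a count, 513 and 441, against 276 to 301 in the other libraries. Control 1 had 293 of them at a total of 270335 counts, beside 317323 in IS 2. The part of depth in these 3p counts was not tested. miR-10b-3p (8 counts in control 3 and 4 in IS 2), miR-125a-3p (4 and 3) and miR-100-3p (1 count in control 3) were at 0 in the remaining libraries.

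The hairpin of Mir125b-1 shows both arms (capitals) that were counted as separate rows (chr9:41581926-41582002, plus strand, GRCm38.p6).
Mir125b-1: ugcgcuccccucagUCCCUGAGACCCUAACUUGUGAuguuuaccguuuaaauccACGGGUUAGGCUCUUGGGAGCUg

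The miRNAs that followed each member most closely over the 6 libraries were found from the SD of the log2 ratio to it, over 205 candidates. For miR-99a-5p they were miR-143-3p (SD 0.14), a smooth muscle and fibroblast miRNA, miR-27b-3p (0.18) and miR-27a-3p (0.20), where the median candidate had 0.90. For miR-100-5p they were miR-27a-3p (0.20), miR-99a-5p (0.22) and miR-218-5p (0.33). For miR-10a-5p they were miR-24-2-5p (0.26), its near-duplicate row miR-3074-2-3p (0.26) and miR-493-5p (0.31), and for miR-10b-5p miR-361-3p (0.37), miR-128-3p (0.41) and miR-3470b (0.46). The nearest to miR-99b-5p were miR-3074-5p and miR-24-3p (0.74 each, nearly the same reads) and then its cluster neighbour let-7e-5p (0.77), the third of 205. For miR-125a-5p they were miR-98-5p (0.35), miR-26b-5p (0.46) and miR-342-3p (0.50), and for miR-125b-5p miR-20a-5p (0.60) and the duplicate rows miR-126a-5p and miR-126b-3p (0.75). The other cluster partners ranked lower. miR-125a-5p was 96th for miR-99b-5p, let-7c-5p was 37th and miR-125b-5p 143rd for miR-99a-5p, and miR-125b-5p was 122nd for miR-100-5p. Seen from miR-125b-5p, whose ratios to all candidates vary more, miR-100-5p was 31st and miR-99a-5p 55th. These SDs are descriptions of 6 libraries in which all miRNAs share the library and its depth, and low counts raise them.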

How the data were processed

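The authors deposited 1 table with a read count and a TPM value for 620 miRNAs in each of 6 libraries. The deposited TPM is each count scaled to a library sum of 1000000 (largest difference 4.8e-10), without length, and is written as CPM. Per the labels' protocols, exoRNeasy Maxi columns gave the RNA and a NEBNext kit the libraries. The submitters' processing notes name CASAVA 1.8 and Bowtie. The build, the miRBase release and the mismatch setting are not stated in the labels.

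edgeR's quasi-likelihood test was run on all counts with TMM factors and filterByExpr (minimum count 10, minimum total 15), and kept 206 miRNAs with 99.7% of the counts. Ratios were log2 of count + 0.5 within a library, tested by exact sign flips over 6 libraries (64 patterns) with Benjamini-Hochberg adjustment over 11 pairs. They compare reads, not molecules, and dividing by the mature length (22 to 24 bases) changed no call. Without molecular identifiers, intervals and floors (3 counts) cover counting error only. Rows within 2 counts or 6% of each other in every library (13 pairs, 0 with a member) were taken as duplicates.

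The members, lists, pairs and tests were chosen with earlier results of these data known. Named are the members, rows of the same seed, 3p arms, hairpin neighbours, Hox cluster miRNAs, the 3 nearest miRNAs of each member and leading markers. In simulated data, log2 changes of 1, 2, 3 and 4 came back as 1.09, 1.89, 2.79 and 3.88. A change of 0 came back as a median of -0.33. The deviations of same-numbered libraries had no common direction (r of deviations 0.358, -0.405 and -0.170). The highest r was 0.585, for control 3 with IS 2. The numbers were therefore not taken as pairs, although so few libraries cannot exclude a pairing. Versions were edgeR 4.0.16 on R 4.3.3, DESeq2 1.42.0, limma 3.58.1 and Python 3.11.15.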

Additional observations from a re-analysis of the deposited data

How the results depend on the processing

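The count of miRNAs past an adjusted p of 0.05 was 0 without a filter, with a minimum of 10 CPM in 3 libraries, with RLE factors or unscaled totals, and with DESeq2, limma on log2(TPM + 1) or log2(TPM + 0.5), a library left out, and the replicate block (0 at an unadjusted p under 0.05, against 3 without the block). The log2 fold change of miR-99b-5p lay between -1.69 and -1.52 under the settings that kept all libraries and was -1.62 with the replicate block. No other member changed sign under those settings. Leaving out a library moved the median over all miRNAs from 0.022 to between -0.27 and 0.050. The member values then ran from -2.33 to -1.27 for miR-99b-5p, -0.92 to 0.15 for miR-10a-5p, -0.17 to 0.96 for miR-10b-5p, -0.65 to -0.10 for miR-99a-5p, -0.75 to -0.11 for miR-100-5p, -0.90 to 0.0044 for miR-125a-5p and -0.029 to 1.34 for miR-125b-5p. With the filter and scaling of all 6 libraries kept, an alternative chosen after seeing the data, miR-99b-5p ran from -2.16 to -1.22, miR-10a-5p from -0.50 to 0.31, miR-10b-5p from -0.045 to 1.02, miR-99a-5p from -0.44 to -0.057, miR-100-5p from -0.45 to 0.031, miR-125a-5p from -0.62 to 0.13 and miR-125b-5p from 0.19 to 1.32.

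The 7 pairs past the threshold stayed past it with 1 or nothing added to each count, with libraries thinned to the smallest total and with reads per base (chosen after seeing the data). The amount added to both counts cannot change which is larger, so that setting could not alter these calls. With the median in place of the mean none of the 7 passed (adjusted p = 0.153 for each, exact permutation). None could have passed, since flipping the signs of the smallest ratios of a pair leaves its median unchanged. The median log2 ratios were 1.07 for miR-10b-5p over miR-10a-5p, and -5.19 and -3.24 for miR-99b-5p over miR-99a-5p and miR-100-5p. They were 1.95 for miR-99a-5p over miR-100-5p and 2.16 for miR-99b-5p over miR-125a-5p. For miR-99a-5p and miR-100-5p over miR-125b-5p they were 5.82 and 3.91. With a library left out the mean log2 ratios ran, in the same order, from 1.08 to 1.40, -5.14 to -4.66, -3.18 to -2.59, 1.96 to 2.08, 1.71 to 2.39, 5.54 to 6.16 and 3.57 to 4.14. The share of the 7 members, IS minus control, was -0.0083 percentage points, 0.012 to 0.076 with repeated rows or red cell and liver miRNAs out of the total, and -0.14 to 0.24 with a library left out, so it has no stable sign.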

Other observations

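Another miRNA with the miR-125 seed, miR-351-5p from the X chromosome, had levels in the range of the miR-125 members. It had 14, 9 and 35 counts in control (51.8, 38.3 and 80.4 CPM) and 10, 30 and 3 counts in IS (67.0, 94.5 and 23.9 CPM), with a log2 fold change of 0.24 (SE 0.96). Its sequence carries the seed CCCUGAG in capitals and departs from the others after it.
miR-351-5p: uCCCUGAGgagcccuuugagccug
In IS 3 it was at the floor of 3 counts while miR-125b-5p was at its highest (231 CPM). In control the lowest and highest libraries were control 2 and control 3 for both miR-351-5p and miR-125b-5p.

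The other miRNAs of the Hox clusters were far below the miR-10 members. miR-196a-5p had 9, 4 and 2 counts in control and 5, 5 and 5 in IS, miR-196b-5p had 9, 0 and 7 and then 0, 6 and 3, and miR-615-3p had 0, 6 and 2 and then 0, 1 and 0. Of these 3, 0 passed the filter on low counts. let-7a-5p, whose hairpins include the neighbour of Mir100, had 5619, 15304 and 3378 CPM in control and 5074, 2928 and 6999 CPM in IS, with control 2 highest, as for let-7e-5p, whereas miR-100-5p had its lowest control value there.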
